A study of Mus musculus with 20 samples.

Results

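The genes described here are 10 writers and readers of methylation on lysine 9 of histone H3 (H3K9), measured in single mouse 8-cell embryos that had lost the maternal supply of G9a, the H3K9 methyltransferase encoded by Ehmt2. They were chosen by symbol and make up 10 of the 34937 genes in the count tables, and all 10 had enough reads to be tested. The embryos were collected at E2.5 on a mixed background from timed natural matings, and only those of normal morphology were sequenced. The 9 Ehmt2Cntr embryos came from Ehmt2F/+ mothers carrying Zp3-Cre, and the 10 Ehmt2Mat embryos came from Ehmt2F/- mothers carrying Zp3-Cre. Zp3-Cre recombines the conditional allele in the growing oocyte, so control mothers also carried the recombinase and kept a single functional copy in the oocyte, whereas mutant mothers kept none. By zygotic genotype, 6 controls were +/+ and 3 were +/-, and 5 Ehmt2Mat embryos were +/- (Ehmt2M/+) and 5 were -/- (Ehmt2M/Z).

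G9a and its binding partner GLP, encoded by Ehmt1, act as a heterodimer that places mono- and dimethylation on H3K9, and the zinc finger protein WIZ helps to stabilise and target this complex. SETDB1, recruited through the corepressor TRIM28 (KAP1) by KRAB zinc finger proteins, places trimethylation on retrotransposons and imprinted loci, and SUV39H1 and SUV39H2 place it on pericentromeric heterochromatin. Methylated H3K9 is bound by the heterochromatin proteins HP1β, HP1γ and HP1α, which are encoded by Cbx1, Cbx3 and Cbx5. The comparisons below ask whether the transcripts of the other enzymes and readers were higher or lower in embryos without maternal G9a.

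Total counts ranged from 8231646 to 30602434 per embryo, and levels are given as CPM, the count divided by the scaled total of its embryo. A floor of 3 counts equalled 0.0911 to 0.364 CPM, and it covers counting error only, since the cDNA was amplified without molecular identifiers. All embryos held reads of the cleavage embryo genes Pou5f1, Tfap2c, Dppa3, Nanog, Klf5 and Sall4, and Cdx2, which marks trophectoderm, was at 0 in 13. Of 7 cumulus and granulosa markers, 5 were at 0 in all 19 embryos and the summed level of the list was at most 4.97 CPM in controls and 38.2 CPM in Ehmt2Mat embryos, and its part in the results was not tested. Reads of Y-linked genes exceeded 1 CPM in 5 of 9 controls and in 9 of 10 Ehmt2Mat embryos. Of these, Ehmt2Mat embryo 4 had 2.31 CPM and the others at least 83.4 CPM, so at a threshold of 10 CPM 8 of 10 Ehmt2Mat embryos were called male.

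How far a count can be assigned to each gene differed between the members. No exon of Ehmt2, Ehmt1, Trim28, Cbx1, Cbx3 or Cbx5 overlapped an exon of another gene, whereas exons of the other 4 overlapped genes on the opposite strand, and the counting did not use strand. For Wiz (chr17:32354055-32389401, GRCm38, minus strand) 22.2% of exon bases were shared with Gm26858, which had at most 0.587 CPM in any embryo. Suv39h1 (chrX:8061171-8074760) shared 14.6% of its exon bases with Gm14820, whose level was a median of 8.71% and at most 53.7% of that of Suv39h1. Suv39h2 (chr2:3455815-3475031) shared 8.1% with Dclre1c, and Setdb1 (chr3:95323525-95357202) shared 75 bases with Cers2. Dclre1c and Cers2 reached 44.7 and 659 CPM, so a read in the shared bases of these genes could stem from either strand. Their levels were a median of 89.35% of that of Suv39h2 and 491.7% of that of Setdb1. Over all embryos, r of log2(CPM + 1) was 0.56 for Gm14820 with Suv39h1, 0.11 for Dclre1c with Suv39h2 and 0.71 for Cers2 with Setdb1. The cause of these relations was not tested. Ehmt2 itself lies at chr17:34898469-34914052 on the plus strand with 24 merged exons.

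Cbx3 (chr6:51470360-51483704, plus strand) was the member most alike to other genes. Of its distinct 50-base windows, the length of a read, 8.67% were also found in transcripts of 16 other genes, 13 of them pseudogenes, against 7.98% for Setdb1, 2.77% for Wiz and at most 0.468% for each other member. A coding window of Cbx3 that is also found in 9 other genes, 8 of them pseudogenes, is shown because reads from it cannot be told from reads of those copies.
Cbx3 exon window, chr6:51475260-51475309 (GRCm38, plus strand): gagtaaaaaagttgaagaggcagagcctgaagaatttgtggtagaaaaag
Of the 16 genes, 2 had a row in the count tables and both were at 0 in every embryo.

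Per length, Trim28 was the most abundant of the 10 transcripts, and the HP1γ gene Cbx3 the least. The median level over all 19 embryos was 161 RPKM (reads scaled to exon length and library size) for Trim28, 23.2 for Cbx5, 20.9 for Ehmt2, 10.6 for Suv39h1, 10.2 for Setdb1, 9.1 for Ehmt1, 5.07 for Wiz, 3.34 for Suv39h2, 3.26 for Cbx1 and 0.204 for Cbx3. Neighbours in this order overlapped between embryos except Trim28 and Cbx5, since the lowest Trim28 level (108 RPKM) exceeded the highest Cbx5 level (31.8 RPKM). Because the cDNA is biased towards the 3′ end of transcripts, levels per length are only approximate between genes. Trim28 was also the least variable of the 10 within groups (SD of log2(CPM + 1) of 0.30), and Suv39h2 the most variable (1.16).

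**Figure D1:**
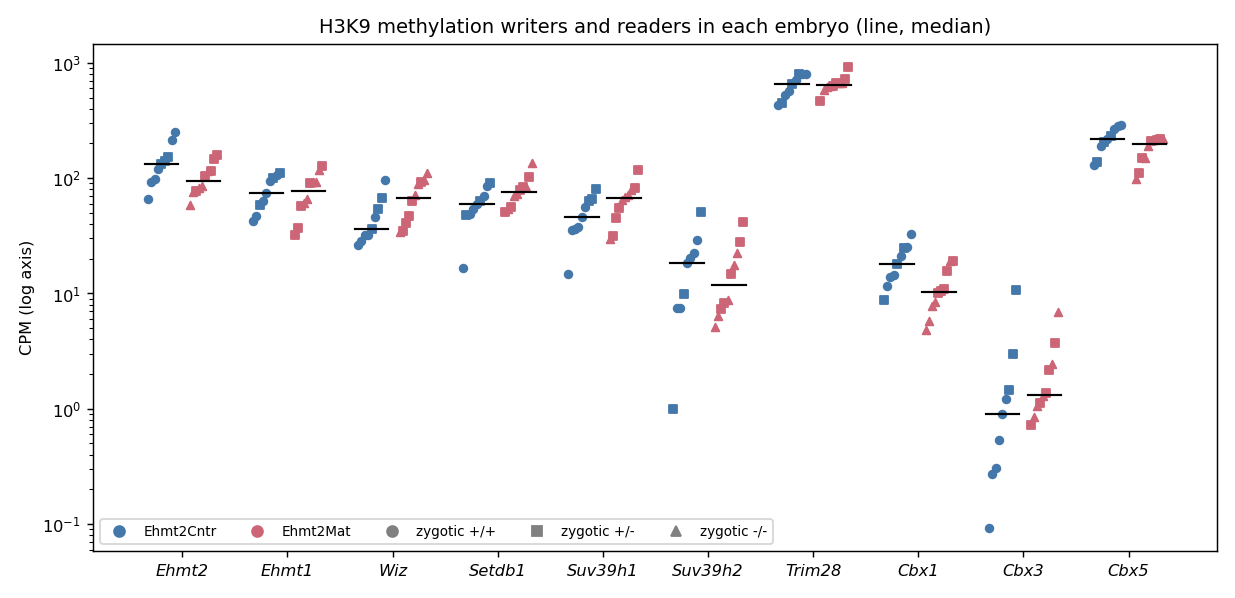
Level of each of the 10 genes (CPM, log axis) in each of 9 Ehmt2Cntr and 10 Ehmt2Mat embryos, with the shape of a point giving the zygotic genotype and the line the group median. The groups overlapped for every gene, and Suv39h2 and Cbx3 spread most between embryos.

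Ehmt2 transcripts were detected in every embryo, including those without a functional zygotic copy. Counts were made over the whole gene, so reads from a recombined allele outside the deleted segment would be counted as Ehmt2, and the value does not check the deletion. Ehmt2M/Z embryos had 58.7, 75.1, 82.4, 84.8 and 115 CPM. Ehmt2M/+ embryos had 77.3, 105, 116, 148 and 159 CPM. The 3 controls that were +/- had 133, 141 and 154 CPM, and the 6 controls that were +/+ ranged from 66.6 to 253 CPM with a median of 109 CPM. The mean was thus 140.9 ± 75.2 (SD, n = 6) and 142.6 ± 10.6 (SD, n = 3) CPM in the control genotypes, 121 ± 33.0 (SD, n = 5) in Ehmt2M/+ and 83.1 ± 20.4 (SD, n = 5) in Ehmt2M/Z embryos. In Ehmt2M/Z embryos 1 of 5 values lay above the control +/+ median, and the groups overlapped.

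**Figure D2:**
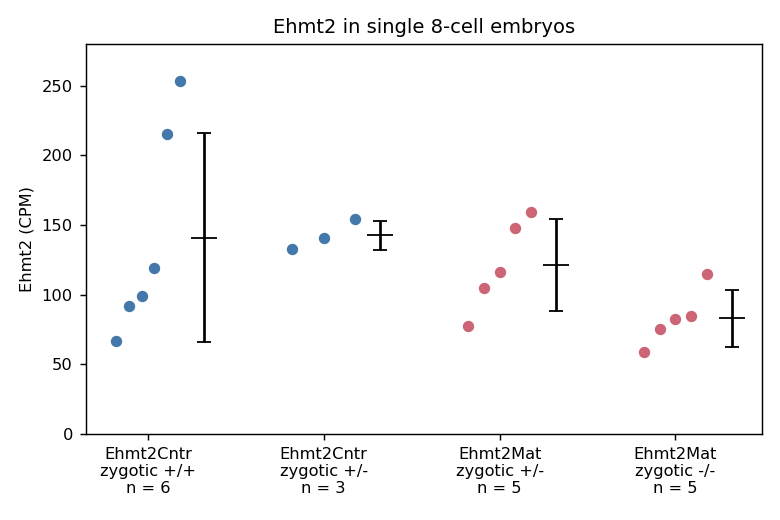
Ehmt2 level (CPM) in single embryos by maternal group and zygotic genotype, with the bar showing the mean and SD. Ehmt2M/Z embryos lay between 58.7 and 115 CPM and overlapped every group except the 3 +/- controls, while the +/+ controls spread from 66.6 to 253 CPM.

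Between all Ehmt2Mat and all Ehmt2Cntr embryos the log2 fold change of Ehmt2 was -0.47 ± 0.24 (SE), with a 95% interval from -0.96 to 0.02 (edgeR quasi-likelihood test, adjusted p = 0.233). The levels were 58.7 to 159 CPM with a median of 94.9 CPM in Ehmt2Mat and 66.6 to 253 CPM with a median of 133 CPM in Ehmt2Cntr embryos. Of the 10 Ehmt2Mat embryos 2 lay above the control median. CPM are relative to the scaled total of each embryo, so a difference in cell number or in total RNA per cell cannot be seen in them.

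None of the 10 genes passed the threshold between Ehmt2Mat and Ehmt2Cntr embryos (edgeR, adjusted p of 0.05), whereas 9.35% of the 11754 genes tested did. DESeq2 also called 0 of 10, against 13.6% of the genes it tested. At an unadjusted p under 0.05, 1 of 10 was called, the HP1β gene Cbx1, against 23.3% of all genes. The 2 groups overlapped in CPM for all 10 genes, and groups without overlap were found for 0.519% of all genes tested. The estimates were 5 higher and 5 lower, with a median log2 fold change of 0.02 against -0.04 over all genes, and a median absolute log2 fold change of 0.35 against 0.48. The 95% interval contained 0 for 9 of the 10 genes. For 7 of 10 its upper end was under 1, so an increase by a log2 fold change of 1 lay outside it. The exceptions were Wiz, Suv39h1 and Cbx3, whose upper ends were 1.15, 1.01 and 1.73.

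**Figure D3:**
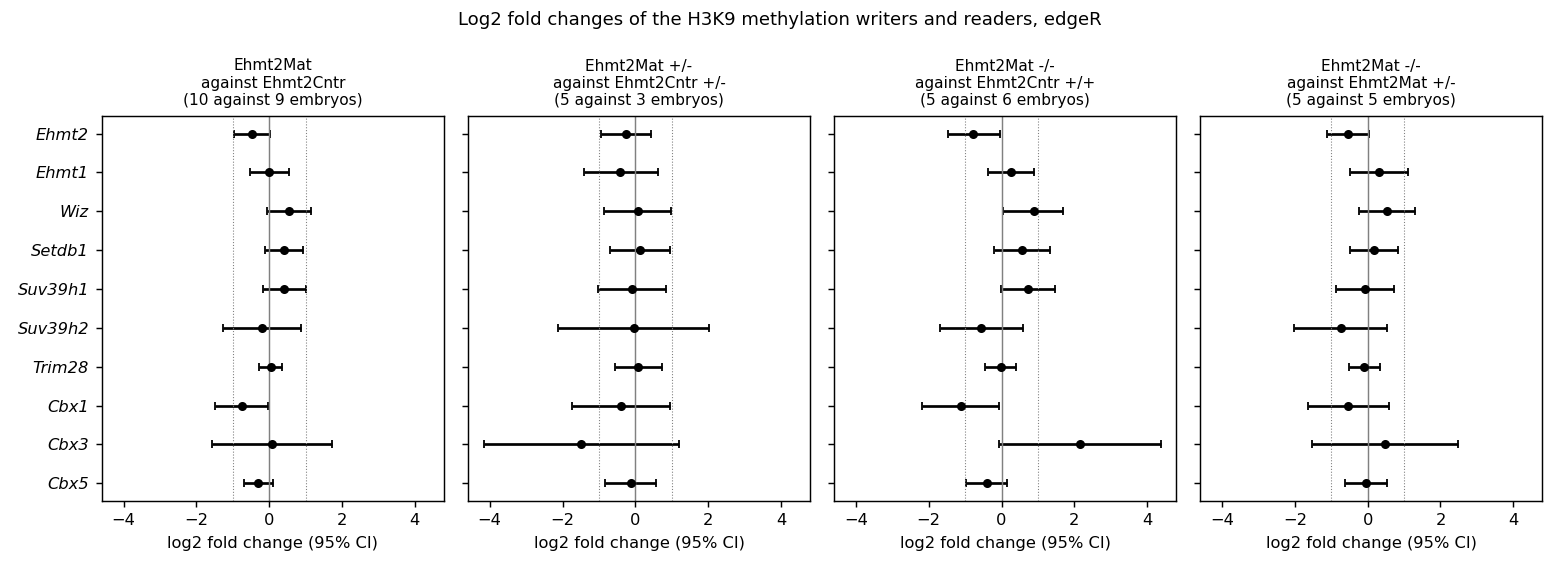
Log2 fold change of each gene with its 95% interval (edgeR) in 4 comparisons between embryo groups, with dotted lines at -1 and 1. In the comparison of all Ehmt2Mat with all Ehmt2Cntr embryos the interval of Cbx1 excluded 0 and the other 9 contained it, and Cbx3 had the widest interval in all 4 comparisons.

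Of the partners of G9a, Ehmt1, which encodes GLP, was at the same mean level in both groups and Wiz had the higher mean in Ehmt2Mat embryos. Ehmt1 was at 42.4 to 110 CPM (median 73.8) in controls and at 32.3 to 126 CPM (median 77.9) in Ehmt2Mat embryos. For Ehmt1 the log2 fold change was 0.00 ± 0.26 (SE), with a 95% interval from -0.54 to 0.54 (edgeR, adjusted p = 0.998). These bounds correspond to 0.687 and 1.45 times the control level. Wiz was at 26.1 to 96.1 CPM (median 36.2) in controls and at 33.9 to 112 CPM (median 67.5) in Ehmt2Mat embryos. Its log2 fold change was 0.55 ± 0.29 (SE), with a 95% interval from -0.05 to 1.15 (edgeR, adjusted p = 0.258, exact permutation test p = 0.0749). Wiz lay above the control median in 8 of 10 Ehmt2Mat embryos, and the control with the highest Wiz level, embryo 6, also had the highest Ehmt2 level and the lowest Suv39h1 and Cbx3 levels of all 19 embryos.

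Neither gene of the SETDB1 and TRIM28 pathway passed the test. Setdb1, the methyltransferase, was at 16.6 to 90.1 CPM (median 59.2) in controls and at 51.1 to 136 CPM (median 76.0) in Ehmt2Mat embryos. The log2 fold change of Setdb1 was 0.41 ± 0.25 (SE), with a 95% interval from -0.12 to 0.93 (edgeR, adjusted p = 0.358). The lowest value belonged to control embryo 7, and the estimate was 0.28 without that embryo. Cers2, whose exons share 75 bases with Setdb1, had a log2 fold change of 0.29 ± 0.24 (SE), and its part in the Setdb1 count was not tested. Trim28, the corepressor that brings SETDB1 to its targets, was at 435 to 807 CPM (median 651) in controls and at 463 to 921 CPM (median 648) in Ehmt2Mat embryos. The Trim28 log2 fold change was 0.04 ± 0.16 (SE), the narrowest of the 10, with a 95% interval from -0.28 to 0.36, or 0.821 to 1.28 times the control level (edgeR, adjusted p = 0.924).

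The 2 pericentromeric methyltransferases differed in how firmly their levels were measured. Suv39h1 was at 14.8 to 80.2 CPM (median 46.5) in controls and at 29.7 to 118 CPM (median 66.8) in Ehmt2Mat embryos. Its log2 fold change was 0.41 ± 0.29 (SE), with a 95% interval from -0.18 to 1.01 (edgeR, adjusted p = 0.422). Suv39h1 is X-linked and more Ehmt2Mat than control embryos were called male, and with sex as a covariate the estimate was 0.58 (edgeR, adjusted p = 0.282), or 0.54 with male called above 10 CPM (edgeR, adjusted p = 0.286). Suv39h2 was at 0.985 to 50.7 CPM (median 18.3) in controls and at 5.13 to 41.9 CPM (median 11.8) in Ehmt2Mat embryos. For Suv39h2 the log2 fold change was -0.20 ± 0.52 (SE) and its 95% interval, from -1.27 to 0.86, spanned 0.416 to 1.82 times the control level (edgeR, adjusted p = 0.873). Gm14820, which shares exon bases with Suv39h1, had a log2 fold change of 0.43 ± 0.72 (SE). Dclre1c, which shares exon bases with Suv39h2, had one of -0.89 ± 0.45 (SE). Reads in the shared bases entered both counts, and their part in the counts of the 2 members was not tested.

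The 3 HP1 genes gave separate results. Cbx1, which encodes HP1β, was at 8.75 to 32.9 CPM (median 18.1) in controls and at 4.81 to 19.3 CPM (median 10.3) in Ehmt2Mat embryos, with 2 of 10 Ehmt2Mat embryos above the control median. Its log2 fold change was -0.76 ± 0.35 (SE), with a 95% interval from -1.48 to -0.04 (edgeR, adjusted p = 0.188, two-sided exact permutation test over 92378 splits, p = 0.0179). Cbx1 was thus the member with the smallest exact p, which was not adjusted, and its edgeR p did not pass the adjustment over all genes. Cbx5, which encodes HP1α, was at 130 to 287 CPM (median 217) in controls and at 98.0 to 219 CPM (median 200) in Ehmt2Mat embryos. The Cbx5 log2 fold change was -0.30 ± 0.19 (SE), with a 95% interval from -0.69 to 0.10 (edgeR, adjusted p = 0.388). Cbx3, which encodes HP1γ, had 2 to 179 counts per control and 6 to 143 counts per Ehmt2Mat embryo, or 0.0926 to 10.8 and 0.727 to 6.96 CPM. The log2 fold change of Cbx3 was 0.08 ± 0.80 (SE), with a 95% interval from -1.57 to 1.73, or 0.336 to 3.31 times the control level (edgeR, adjusted p = 0.971). Control embryo 3 held the highest Cbx3 value, and the estimate was 1.15 without it (edgeR, adjusted p = 0.397), 1.08 with DESeq2 (adjusted p = 0.230) and 0.73 with sex as a covariate, none of them past the threshold. Without Ehmt2Mat embryo 7, which held the highest Ehmt2Mat value, the estimate was -0.33 (edgeR, adjusted p = 0.865). Its sign was reversed in 7 of 19 fits that left out 1 embryo.

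With the zygotic genotype matched at +/-, 5 Ehmt2M/+ embryos were compared with 3 controls. None of the 10 genes passed the threshold (edgeR), and 0.00746% of the 13401 genes tested did. At an unadjusted p under 0.05, 0 of 10 were called against 6.76% of all genes. DESeq2 called 0 of 10 and 205 genes in all. The log2 fold changes were -0.26 ± 0.31 (SE) for Ehmt2, -0.41 ± 0.47 for Ehmt1, 0.06 ± 0.43 for Wiz, 0.12 ± 0.38 for Setdb1, -0.09 ± 0.43 for Suv39h1, -0.05 ± 0.96 for Suv39h2 and 0.08 ± 0.30 for Trim28. For the HP1 genes they were -0.39 ± 0.62 (SE) for Cbx1, -0.12 ± 0.32 for Cbx5 and -1.49 ± 1.24 for Cbx3, the largest of the 10 in size and opposite in sign to the Cbx3 estimates against +/+ controls given below. Over the 10 genes the median absolute log2 fold change was 0.12, against 0.57 over all genes. For 5 of 10 the 95% interval lay within -1 and 1.

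The comparison of embryos lacking both the maternal and the zygotic supply (Ehmt2M/Z, n = 5) with +/+ controls (n = 6) gave a median absolute log2 fold change of 0.64 over the 10 genes, against 0.60 over all genes. None of the 10 genes passed the threshold (edgeR), against 6.21% of the 11820 genes tested, and DESeq2 called 0 of 10 and 2001 genes in all. At an unadjusted p under 0.05, 3 of 10 were called, Ehmt2, Wiz and Cbx1, against 20.4% of all genes. The log2 fold change of Ehmt2 was -0.77 ± 0.34 (SE), with a 95% interval from -1.48 to -0.05 (edgeR, adjusted p = 0.206). Wiz was at 33.9, 71.6, 88.2, 97.0 and 112 CPM in Ehmt2M/Z embryos and at 26.1 to 96.1 CPM with a median of 32.1 CPM in +/+ controls. All 5 Ehmt2M/Z embryos lay above the control median, with a log2 fold change of 0.88 ± 0.39 (SE) and a 95% interval from 0.05 to 1.70 (edgeR, adjusted p = 0.209). Without control embryo 6, which held the highest control value, Wiz passed the threshold at 1.27 (edgeR, adjusted p = 0.0457). This was the only call of Wiz in 11 fits that left out 1 embryo, over which adjusted p reached 0.390 (edgeR). Without Ehmt2Mat embryo 7, which held the highest Wiz value, the estimate was 0.72.

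In the same 2 groups Suv39h1, Cbx1 and Cbx3 did not pass the threshold either. Suv39h1 was at 29.7, 64.6, 69.0, 71.5 and 79.1 CPM in Ehmt2M/Z embryos and at 14.8 to 55.7 CPM in +/+ controls. In 4 of 5 Ehmt2M/Z embryos it exceeded every +/+ control, with a log2 fold change of 0.72 ± 0.35 (SE) (edgeR, adjusted p = 0.261). Cbx1 was at 4.81, 5.75, 7.84, 8.37 and 19.1 CPM in Ehmt2M/Z embryos and at 11.7 to 32.9 CPM in +/+ controls. Its log2 fold change was -1.12 ± 0.49 (SE) (edgeR, adjusted p = 0.209, exact permutation test p = 0.0195). Cbx3 was at 0.853 to 6.96 CPM in Ehmt2M/Z embryos and at 0.0926 to 1.22 CPM in these controls, with a log2 fold change of 2.16 ± 1.05 (SE) (edgeR, adjusted p = 0.261, exact permutation test p = 0.0152). The other estimates were 0.57 ± 0.36 (SE) for Setdb1, 0.25 ± 0.30 for Ehmt1, -0.55 ± 0.54 for Suv39h2, -0.41 ± 0.27 for Cbx5 and -0.02 ± 0.19 for Trim28. This comparison shares its embryos with that of all Ehmt2Mat and Ehmt2Cntr embryos, so the values are not a repeat of it.

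Within the maternally depleted embryos, Ehmt2 itself had the smallest exact p between embryos with and without a zygotic copy. The log2 fold change of Ehmt2 between 5 Ehmt2M/Z and 5 Ehmt2M/+ embryos was -0.54 ± 0.27 (SE), with a 95% interval from -1.11 to 0.03 (edgeR, adjusted p = 0.9997, exact permutation test p = 0.0794). None of the 10 genes and 0% of the 12195 genes tested passed the threshold (edgeR), and DESeq2 called 0 of 10 and 15 genes in all. At an unadjusted p under 0.05, 0 of 10 were called against 2.21% of all genes. The estimates were 0.32 ± 0.37 (SE) for Ehmt1, 0.53 ± 0.36 for Wiz, 0.17 ± 0.30 for Setdb1, -0.07 ± 0.37 for Suv39h1 and -0.09 ± 0.20 for Trim28. Suv39h2 had the largest estimate of the 10 in size, -0.73 ± 0.60 (SE). For the HP1 genes the estimates were -0.53 ± 0.52 (SE) for Cbx1, 0.48 ± 0.94 for Cbx3 and -0.05 ± 0.27 for Cbx5. Trim28 spanned 588 to 673 CPM in Ehmt2M/Z embryos and 463 to 921 CPM in Ehmt2M/+ embryos.

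Between +/- and +/+ controls, which had the same maternal supply, the level of Ehmt2 differed by a log2 fold change of 0.04 ± 0.40 (SE). None of the 10 genes and 0% of the 12646 genes tested passed the threshold (edgeR), and DESeq2 called 0 of 10 and 103 genes in all. At an unadjusted p under 0.05, 2 of 10 were called, Suv39h1 and Cbx3, against 4.52% of all genes. For these 2 genes the groups did not overlap, as was found for 2.7% of all genes tested. Suv39h1 was at 62.8, 66.5 and 80.2 CPM in +/- controls and at 14.8 to 55.7 CPM in +/+ controls, with a log2 fold change of 0.90 ± 0.40 (SE) (edgeR, adjusted p = 0.9998, exact permutation test p = 0.0476). Suv39h1 is X-linked, and the controls not called male were embryos 3 and 10 (+/-) and embryos 5 and 9 (+/+). The part of sex in this difference was not tested. Cbx3 was at 1.46, 2.96 and 10.8 CPM in +/- controls and at 0.0926 to 1.22 CPM in +/+ controls, with a log2 fold change of 3.19 ± 1.37 (SE) (edgeR, adjusted p = 0.9998, exact permutation test p = 0.0119). The same 6 +/+ controls are the reference of the comparison with Ehmt2M/Z embryos.

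The 10 genes were set beside 41 other genes of H3K9 methylation in 6 lists, of which 38 were tested between Ehmt2Mat and Ehmt2Cntr embryos. Of these, 3 (7.89%) passed the threshold, 1 higher and 2 lower, against 9.35% of all genes. Among 6 partners of G9a and GLP, 1 was lower, Zfp644, a zinc finger protein that targets the complex together with WIZ. Zfp644 was at 17.6 to 158 CPM (median 104) in controls and at 6.18 to 65.8 CPM (median 33.1) in Ehmt2Mat embryos, and all 10 Ehmt2Mat embryos lay below the control median. Its log2 fold change was -1.69 ± 0.43 (SE) (edgeR, adjusted p = 0.0146), and the groups overlapped through control embryos 6, 7 and 10. Zfp644 did not pass the threshold between Ehmt2M/Z and +/+ controls (-1.85, edgeR, adjusted p = 0.0747) or between Ehmt2M/+ and +/- controls (-1.73, edgeR, adjusted p = 0.633). Among 10 proteins that bind H3K9 methylation or HP1, 1 was lower, Adnp, a transcription factor that recruits HP1. Adnp was at 405 to 739 CPM (median 549) in controls and at 204 to 475 CPM (median 358) in Ehmt2Mat embryos, with a log2 fold change of -0.69 ± 0.16 (SE) (edgeR, adjusted p = 0.0073). Between Ehmt2M/Z and +/+ control embryos its log2 fold change was -0.74 ± 0.19 (SE) (edgeR, adjusted p = 0.0341), and between Ehmt2M/+ and +/- control embryos it was -0.67 ± 0.31 (SE) (edgeR, adjusted p = 0.740).

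Among 4 partners of TRIM28, 1 was higher, Zfp57, the KRAB zinc finger protein that protects imprinted methylation. Zfp57 was at 5.44 to 28.9 CPM (median 13.4) in controls and at 13.8 to 61.6 CPM (median 33.1) in Ehmt2Mat embryos, and all 10 Ehmt2Mat embryos lay above the control median. Its log2 fold change was 1.07 ± 0.34 (SE) and lay just past the threshold (edgeR, adjusted p = 0.0497). It fell short of the threshold in 13 of 19 fits that left out 1 embryo, where adjusted p reached 0.101 with edgeR, and with sex as a covariate (edgeR, adjusted p = 0.0565), but not with male called above 10 CPM (edgeR, adjusted p = 0.0497). Within the genotypes Zfp57 did not pass (1.01 between Ehmt2M/Z and +/+ controls, edgeR, adjusted p = 0.188, and 1.13 between Ehmt2M/+ and +/- controls, edgeR, adjusted p = 0.840). None of the 4 tested genes of the HUSH complex, of the 5 tested other methyltransferases and SETDB1 cofactors or of the 9 tested H3K9 demethylases passed the threshold (edgeR). The smallest adjusted p (edgeR) was 0.580 for Mphosph8 in the HUSH complex (log2 fold change of -0.31 ± 0.29, SE), 0.430 for Setdb2 among the other methyltransferases (0.57 ± 0.40) and 0.256 for Kdm3b among the demethylases (-0.51 ± 0.27).

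**Figure D4:**
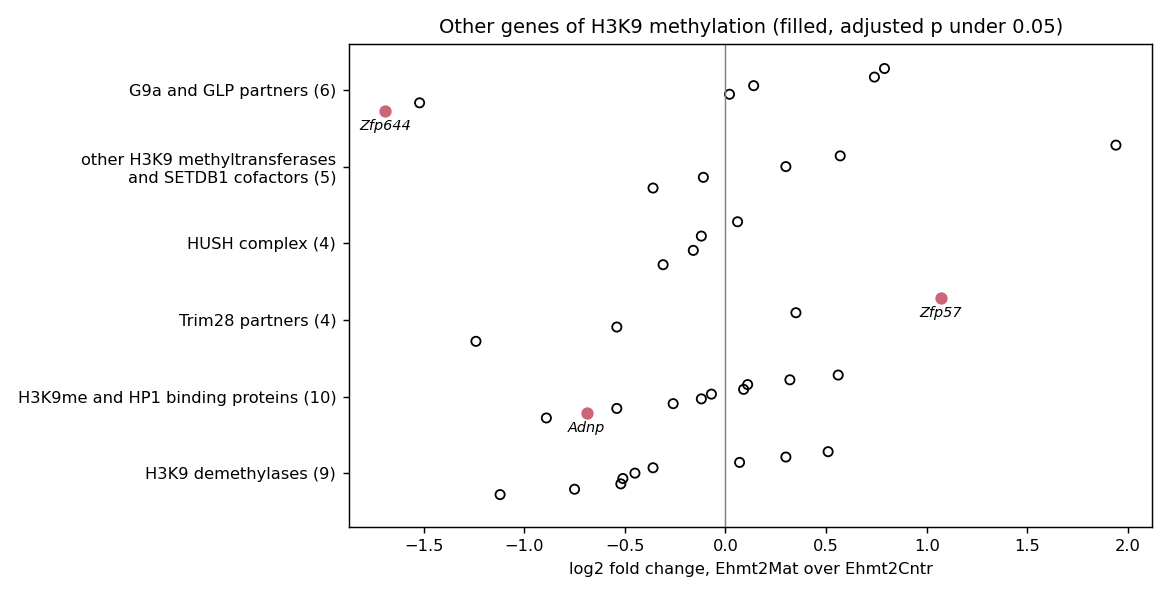
Log2 fold change of 38 other genes of H3K9 methylation between Ehmt2Mat and Ehmt2Cntr embryos (x axis), by list with the number tested (y axis), with filled points for an adjusted p under 0.05 (edgeR). Zfp644 at -1.69, Adnp at -0.69 and Zfp57 at 1.07 passed the threshold.

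Over the 19 embryos, the level of Ehmt2 had no relation to that of another member that passed a test. With each maternal group centred on its own mean of log2(CPM + 1), the largest of 9 relations by Pearson r was that of Ehmt2 with Cbx5 (Pearson r = 0.41, permutation p = 0.0877, Spearman rho = 0.28, permutation p = 0.261), with adjusted p of 0.569 and 0.711 over the 9 relations. Without the 2 embryos farthest from the median of Ehmt2, control embryos 2 and 6, r was 0.21. For Trim28, which had the largest rho, r was 0.39 (permutation p = 0.127, adjusted 0.569) and rho 0.45 (permutation p = 0.0755, adjusted 0.680), and r was 0.37 without those embryos. For Ehmt1, which encodes the obligate partner of G9a, r was -0.05 (permutation p = 0.828, adjusted 0.931) and rho was -0.02 (permutation p = 0.940, adjusted 0.940). Within the controls alone, the largest relations were those with Cbx1 (r = -0.64, exact permutation p = 0.0613) and Wiz (r = 0.63, exact permutation p = 0.0719). Within the Ehmt2Mat embryos r was 0.28 with Cbx1 (permutation p = 0.429) and -0.10 with Wiz (permutation p = 0.770). These p-values were not adjusted. The genes most like Ehmt2 in the levels centred by maternal group were Kazn (r = 0.81), Thra (r = 0.80) and Gm17232 (r = 0.78), the highest of 11753 genes over 19 embryos, given as a description.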

How the data were processed

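RNA of 19 single 8-cell embryos was analysed, and control embryo 4 was not analysed here. The cDNA was amplified with a 3′ bias and sequenced as single-end 50 bp reads. The authors deposited raw counts of reads per gene, made per the file headers with featureCounts 1.5.0 on exons of Ensembl release 82 (GRCm38) with a minimum overlap of 10 bases, without strand, counting a read once for each gene it touched and keeping reads that map to several places. The aligner of these counts is not given in the headers, and the submitters' processing notes name TopHat2. Counts of members with near-identical copies are therefore uncertain.

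From the counts, CPM (TMM-scaled) and RPKM (exon length from the same tables) were computed. Groups and embryo numbers came from the sample records. edgeR 4.0.16 in R 4.3.3 was fitted to all genes passing its filter on low counts, with the quasi-likelihood test, Benjamini-Hochberg adjustment over all genes tested and a threshold of 0.05. No covariate was used. Single genes were compared by two-sided exact permutation tests on log2(CPM + 1), whose p-values were not adjusted, and the correlations used 100000 permutations. DESeq2 1.42.0, RLE and upper-quartile normalization, other filters, sex (male above 1 CPM of Y-linked genes, and above 10 CPM, added after seeing the data), the embryo number as a replicate block, a fit of 4 genotype groups, another pseudocount, RPKM and each embryo left out were alternatives. Symbols, exons and transcripts came from the GENCODE M21 set of GRCm38. The records do not say that embryos came from separate litters, so p-values measure the spread between these embryos. No pair of embryos had identical counts. Fits were tested on simulated data. The members and the gene lists were chosen with earlier results of these data known. Named genes were all members, and in each list the called genes (up to 4) or otherwise the gene with the smallest adjusted p, the 3 genes most like Ehmt2 and genes sharing exons with a member.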

Additional observations from a re-analysis of the deposited data

Results flagged for a closer look

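In 20 groups of values, 10 genes in 2 maternal groups, the highest and the lowest embryo were compared with the others, and 2 values stood apart, both of Cbx3, which encodes HP1γ. Control embryo 3 had 10.8 CPM of Cbx3 (179 counts), with the next control at 2.96 CPM. Ehmt2Mat embryo 7 had 6.96 CPM (143 counts), with the next Ehmt2Mat embryo at 3.69 CPM. For normally distributed values, chance gives such a gap in about 1 of 20 groups. Whether the CPM values follow that distribution was not tested.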

How the results depend on the processing

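Of the 10 members, 0 were called under every alternative in 4 comparisons. Between Ehmt2M/Z and +/+ controls the count ranged from 0 to 1 when embryos were left out, with Wiz called without control embryo 6. Signs changed under some alternatives, over the widest ranges for Suv39h2 and Cbx3. Between Ehmt2Mat and Ehmt2Cntr, Ehmt1 was 0.02 with upper-quartile normalization, 0.02 without a filter and 0.14 with sex as a covariate (0.09 with male called above 10 CPM, a threshold added after seeing the data), Trim28 was -0.02 with sex as a covariate, and Suv39h2 was 0.16 with the replicate block and 0.05 in the exact test with a pseudocount of 0.1. With the replicate block, Setdb1 was -0.17 and Suv39h1 0.15 between Ehmt2M/+ and +/- controls. Trim28 was 0.02 with upper-quartile normalization between Ehmt2M/Z and +/+ controls, and -0.03 without a filter and -0.03 in the fit of 4 genotype groups between +/- and +/+ controls. Without centring, r of Ehmt2 was -0.13 with Suv39h1 and 0.06 with Cbx1. With each embryo left out in turn, log2 fold changes that changed sign ranged from -0.11 to 0.09 for Ehmt1, -0.49 to 0.14 for Suv39h2, -0.03 to 0.09 for Trim28 and -0.33 to 1.15 for Cbx3 between Ehmt2Mat and Ehmt2Cntr. Between Ehmt2M/+ and +/- controls, they ranged from -0.20 to 0.33 for Wiz, -0.08 to 0.44 for Setdb1, -0.39 to 0.09 for Suv39h1, -0.61 to 1.84 for Suv39h2, -0.12 to 0.26 for Trim28 and -0.33 to 0.03 for Cbx5. Between Ehmt2M/Z and +/+ controls, they ranged from -0.11 to 0.06 for Trim28. Between Ehmt2M/Z and Ehmt2M/+, they ranged from -0.07 to 0.31 for Setdb1, -0.24 to 0.23 for Suv39h1, -0.19 to 0.03 for Trim28, -0.36 to 0.90 for Cbx3 and -0.17 to 0.11 for Cbx5. Between +/- and +/+ controls, they ranged from -0.13 to 0.27 for Ehmt2, -0.03 to 0.45 for Setdb1, -1.66 to 0.77 for Suv39h2, -0.21 to 0.19 for Trim28 and -0.57 to 0.09 for Cbx1.

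Same-numbered embryos of the 2 maternal groups correlated by -0.11 to 0.12 over 9 pairs, 2 of them over 0.1, so the numbers were not taken as pairs. The replicate block on these numbers moved the count over all genes from 1099 to 699 between Ehmt2Mat and Ehmt2Cntr, from 734 to 0 between Ehmt2M/Z and +/+ controls and from 1 to 4 between Ehmt2M/+ and +/- controls. These 2 subgroup comparisons share only 3 and 2 numbers. In the last, the block moved Ehmt1 from -0.41 to -1.63 and the median absolute log2 fold change of the 10 members from 0.12 to 0.52, and Cbx3 was 1.17 with it between Ehmt2Mat and Ehmt2Cntr. With the replicate block Zfp644 was -1.48 (edgeR, adjusted p = 0.138) and Zfp57 was 1.06 (edgeR, adjusted p = 0.114), and Zfp57 was 1.10 without a filter (edgeR, adjusted p = 0.0535), none of them past the threshold, while Adnp was called under every alternative. DESeq2 called 2068, 2001, 205, 15 and 103 genes where edgeR called 1099, 734, 1, 0 and 0. Between Ehmt2M/+ and +/- controls the count over all genes was 5 without a filter, 0 with at least 10 counts in every embryo, 0 in the fit of 4 groups and 0 to 7 with an embryo left out, and between Ehmt2M/Z and +/+ controls it was 333 to 752 with an embryo left out, lowest without Ehmt2Mat embryo 4. The causes were not tested. Values of Cbx3 rest on as few as 2 counts per embryo.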
